A study of Homo sapiens with 4 samples.

Results

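The BCL2 family of apoptosis regulators was examined in SH-SY5Y cells, a human neuroblastoma line, after silencing of TSPAN8, a tetraspanin of the cell surface. The 10 genes were chosen by name: the guardians BCL2, BCL2L1 and MCL1, the effectors BAX and BAK1, and the BH3-only genes BCL2L11, BBC3, PMAIP1, BID and BAD. Every probe set annotated to 1 of these symbols alone was taken, which gave 32 of the 54613 probe sets tested and 9 of the 19775 genes with a probe set of their own. The tenth gene, BBC3, appeared only on a probe set shared with the microRNA genes MIR3190 and MIR3191, so that its signal could not be assigned to BBC3. Cells of both groups were grown in serum-containing medium and RNA was taken after 72 h. The TSPAN8 knockdown group (2 arrays) received small interfering RNA through a self-delivering (Accell) reagent, and the transfection control group (2 arrays) was incubated alongside. The sources used here do not give the control reagent, the small interfering RNA sequence or separate cultures behind the samples of a group. The p-values therefore measure the spread between these samples only, which can be technical.

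The family decides whether the outer membrane of the mitochondrion stays closed. Guardians such as BCL2 hold the effectors BAX and BAK1 in check, BH3-only proteins sensing damage or stress bind the guardians or the effectors, and freed effectors open the membrane so that cytochrome c reaches APAF1 and starts the caspases. Neuroblasts of the sympathetic lineage depend on this balance when growth factors are withdrawn, and BCL2 is commonly abundant in neuroblastoma.

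The arrays were alike, with Pearson's r of 0.998 within each pair and 0.997 to 0.998 between groups (taken over probe sets, which do not count as replicates). TSPAN8 itself stood at log2 values of 6.25 and 6.35 in knockdown cells, against 7.52 and 7.62 in control cells. It fell by 1.27 on the log2 scale (limma, adjusted p = 0.0026), which left 41.5% of the control signal, background included. Of the markers of the line, GATA3 (12.89 and 12.72 in knockdown, 12.87 and 12.77 in control) and ISL1 (12.92 and 12.94 in knockdown, 12.95 and 13.00 in control) were bright. Of the 9 noradrenergic markers measured, 8 were below control and 3 were lower at an unadjusted p under 0.05 (5.57% of all genes were), with 0 called after adjustment (limma). These were the granule proteins CHGA (-0.29) and CHGB (-0.20) and the noradrenaline-synthesising enzyme DBH (-0.35). Only 1 of the 2 DBH probe sets was below control, and the other was at 0.037. The median of the list was -0.059, and the part of these markers in the values of the BCL2 family was not tested. TH, the tyrosine hydroxylase gene, lay below the array medians, at 6.03 and 6.12 in knockdown and at a mean of 5.96 in control. The fibroblast markers were bright in part on every array: LUM had 11.76 and 11.31 in knockdown cells and 11.40 and 11.12 in control cells.

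No BCL2 family gene passed the test. By limma on all 54613 probe sets with Benjamini-Hochberg adjustment, 0 of the 32 member probe sets had an adjusted p under 0.05, where 0.00183% of all probe sets did, and the smallest adjusted p among members was 0.60. An ordinary linear model per probe set called 0 of all probe sets, TSPAN8 included, so its 0 among members carries no information. At an unadjusted p under 0.05 there were 3 member probe sets, 9.38% of the 32, beside 7.83% of all probe sets. The lower one was 1 of 2 probe sets of PMAIP1 (4.12% of all probe sets were lower at that p). The 2 higher ones were 1 of 4 for BCL2 and 1 of 7 for BCL2L11 (3.72% of all were higher). The arrays of the groups did not overlap for 12 member probe sets, 4 higher and 8 lower, which is 37.5% of them, beside 37.5% of all probe sets (17.7% higher and 19.8% lower). Without knockdown replicate 2, where the lone knockdown array is assumed to vary like the controls, 2 member probe sets were called among 1026 of all probe sets.

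At the brightest probe set of most genes the intervals were narrow, but they rest on the spread between these samples only. Over the representative probe set of each gene (the one with the highest mean over the 4 arrays), the 8 genes other than PMAIP1 had 95% confidence intervals of the knockdown minus control difference between -0.23 (BCL2L1) and 0.25 (BID) on the log2 scale. These bounds correspond to 85.5% and 119% of the control signal. Intervals at other probe sets of these genes reached further, down to -0.25 (BCL2L1 215037_s_at) and up to 0.37 (BCL2L11 222343_at). For 29 of the 32 member probe sets the interval included 0. The median absolute difference over the member probe sets was 0.088 between the knockdown arrays, 0.049 between the control arrays and 0.052 between the group means. Over all probe sets these were 0.064, 0.058 and 0.047. In bulk RNA, fewer cells expressing a gene and less RNA of it per cell cannot be told apart.

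**Figure D1:**
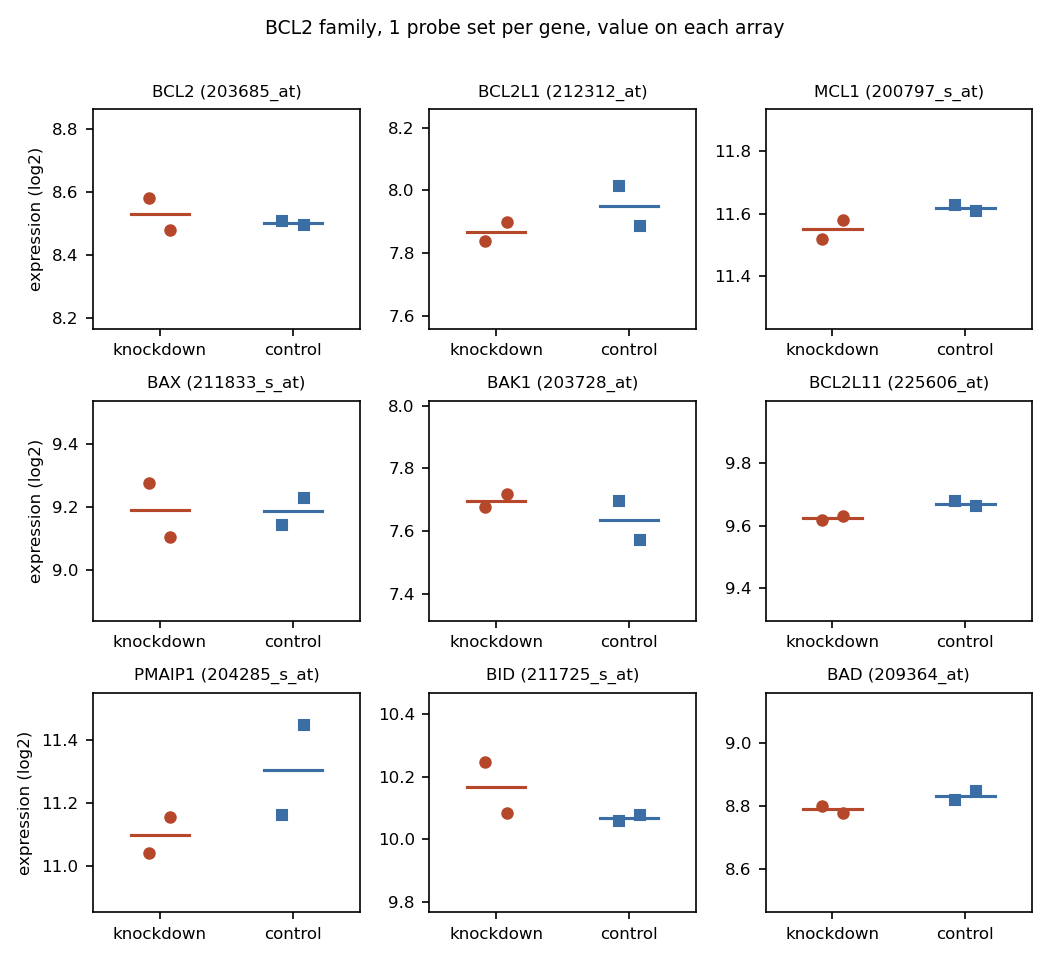
Log2 expression on each array (points) and group means (lines) for the representative probe set of the 9 measured genes, knockdown left and control right, with every axis spanning the same log2 width. PMAIP1 (11.04 and 11.16 in knockdown, 11.16 and 11.45 in control) has the widest distance between group means.

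Among the guardians, BCL2, the founding member that blocks BAX and BAK1 at the membrane, was slightly above control at each of its 4 probe sets. The brightest, 203685_at, had 8.58 and 8.48 in knockdown cells, against 8.51 and 8.49 in control cells. The groups overlapped there, and the difference was 0.029 ± 0.057 (SE; limma, adjusted p = 0.95). At 203684_s_at the values were 6.63 and 6.63 in knockdown cells and 6.50 and 6.45 in control cells, so both knockdown arrays lay above both controls, by 0.15 ± 0.052 (SE; limma, adjusted p = 0.61). The mean signal of that probe set was below the median of all probe sets, 6.59, and so was that of 207005_s_at, which differed by 0.061. The fourth, 207004_at, was at 6.88 and 6.96 in knockdown cells and 6.81 and 6.85 in control cells, a difference of 0.085. The 4 probe sets thus shared a sign, and 2 of them had groups that did not overlap. Of all probe sets 37.5% did not overlap, 17.7% with knockdown higher.

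BCL2L1 encodes BCL-XL and, by alternative splicing, the shorter pro-apoptotic BCL-XS. Its brightest probe set, 212312_at, had 7.84 and 7.90 in knockdown cells and 8.01 and 7.89 in control cells. Knockdown replicate 2 lay between the controls, and the difference was -0.082 ± 0.062 (SE; limma, adjusted p = 0.79). At 215037_s_at both knockdown arrays were below both controls, with 6.61 and 6.66 in knockdown cells and 6.71 and 6.80 in control cells, a difference of -0.12 ± 0.056 (SE; limma, adjusted p = 0.65). The remaining probe sets, 231228_at (-0.053) and 206665_s_at (0.0041), overlapped between the groups.

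MCL1, a short-lived guardian that binds PMAIP1 and BCL2L11, had 6 probe sets which disagreed in sign. At the brightest, 200797_s_at, the values were 11.52 and 11.58 in knockdown cells and 11.63 and 11.61 in control cells. The groups did not overlap, and the difference was -0.066 ± 0.053 (SE; limma, adjusted p = 0.80). At 200798_x_at there were 10.07 and 10.12 in knockdown cells and 10.15 and 10.24 in control cells. The difference was -0.10 ± 0.058 (SE; limma, adjusted p = 0.71). Both 200797_s_at and 200798_x_at are of designs that can bind several transcripts. The other 4 differed by 0.016 to 0.067 in the opposite direction with overlapping arrays and 1 of them, 227175_at, had a mean signal below the median of all probe sets. The 14 guardian probe sets together had a median difference of 0.023, with 9 above and 5 below control.

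The effectors, which form the pores in the outer membrane, showed overlapping groups at all 3 probe sets. BAX had 9.28 and 9.10 in knockdown cells and 9.14 and 9.23 in control cells at 211833_s_at. Knockdown replicate 1 was the highest array and knockdown replicate 2 the lowest, and the difference was 0.0043 ± 0.070 (SE; limma, adjusted p = 1.0). Its second probe set, 208478_s_at, repeated that order with 9.01 and 8.83 in knockdown cells and 8.87 and 8.92 in control cells. BAK1, with a single probe set, stood at 7.68 and 7.72 in knockdown cells and 7.70 and 7.57 in control cells, a difference of 0.062 ± 0.060 (SE; limma, adjusted p = 0.85).

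The difference BAX minus BCL2 within an array, a common summary of effector against guardian, was 0.70 and 0.62 in knockdown cells and 0.63 and 0.74 in control cells (log2, representative probe sets). The groups interleaved. The knockdown mean was 0.66 ± 0.051 and the control mean 0.69 ± 0.071 (SD, n = 2 each), a difference of -0.025 (exact two-sided permutation test, p = 0.67). With 2 arrays against 2 the smallest p this test can give is 0.33. The size of such a ratio reflects probe sets of unlike response and only its shift between groups is a measurement.

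**Figure D2:**
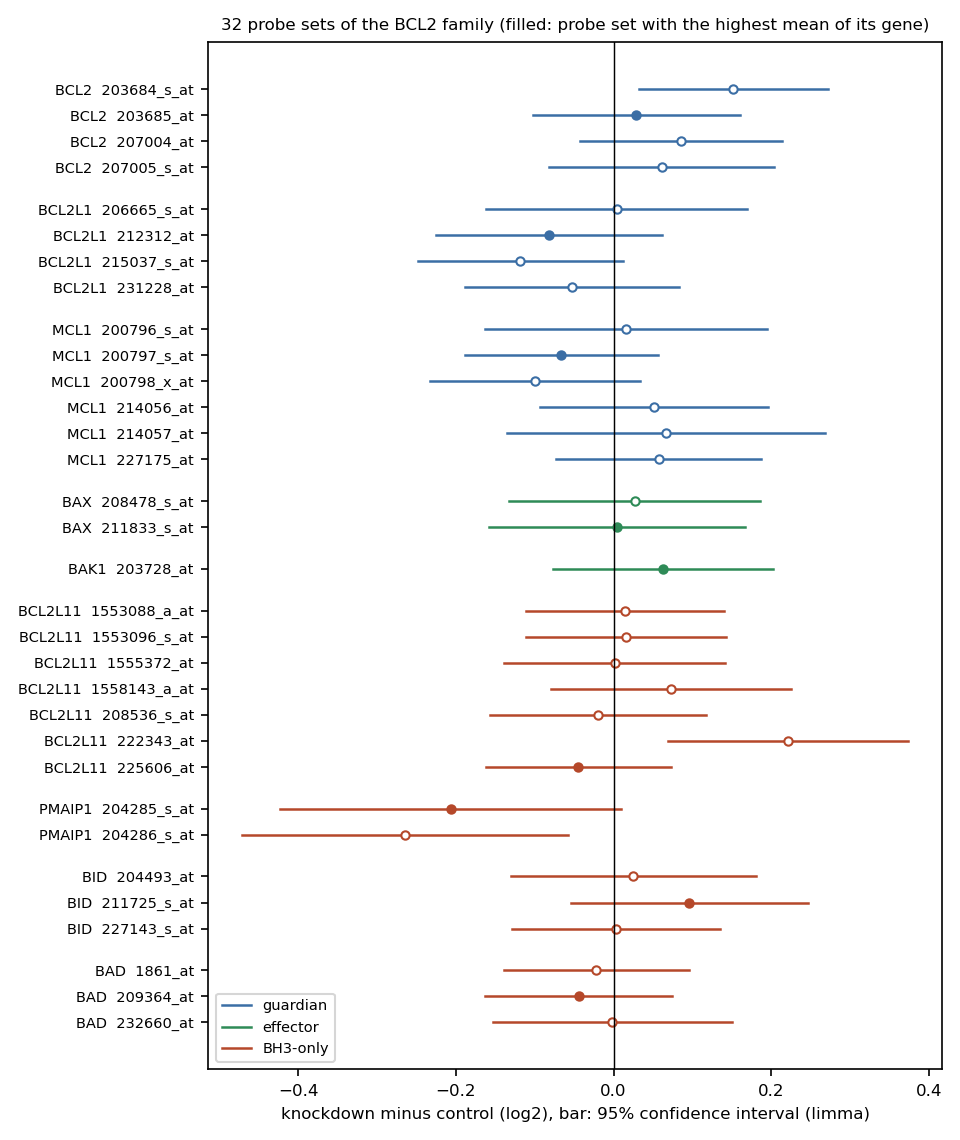
Knockdown minus control (log2) for the 32 member probe sets, with 95% confidence intervals from limma, coloured by role; filled points mark the representative probe set of each gene. Intervals lie clear of 0 for BCL2 203684_s_at, BCL2L11 222343_at and PMAIP1 204286_s_at only, and none of these passed after adjustment.

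Among the BH3-only genes, PMAIP1 had the lowest values relative to control. PMAIP1 encodes NOXA, a small protein that occupies MCL1 and is known to be induced through p53 and through ATF4 of the integrated stress response. At 204286_s_at it had 10.01 and 10.25 in knockdown cells, against 10.31 and 10.48 in control cells, a difference of -0.26 ± 0.089 (SE; limma, adjusted p = 0.60), or 83.2% of the control signal with a 95% interval of 72.1% to 96.1%. At the brighter 204285_s_at it had 11.04 and 11.16 in knockdown cells, against 11.16 and 11.45 in control cells, a difference of -0.21 ± 0.094 (SE; limma, adjusted p = 0.64). Neither passed the adjusted threshold. Both probe sets placed the 2 knockdown arrays below the 2 controls, but at 204285_s_at the gap between knockdown replicate 2 and control replicate 1 was 0.0042. Single arrays decided the size: without control replicate 2 the difference at 204285_s_at was -0.063, and without control replicate 1 it was -0.35. At 204286_s_at it was -0.15 without knockdown replicate 1 and -0.38 without knockdown replicate 2, each in a fit with 1 knockdown array.

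Genes of the integrated stress response shared the lowest and the highest array with PMAIP1. Knockdown replicate 1 was the lowest array and control replicate 2 the highest for both PMAIP1 probe sets and for 8 of 10 stress response genes, and for 10.1% of all probe sets. The full order of PMAIP1, with knockdown replicate 2 below control replicate 1 between them, held for 4 of the 10 genes and for 5.47% of all probe sets. The median deviation of the stress response genes from their control means was -0.33 and -0.10 in knockdown cells (replicates 1 and 2) and -0.12 and 0.12 in control cells. At the representative probe sets all 10 were below control, as were 55.6% of all genes, and the median was -0.22. The probe sets of ASNS (1 of 2 below control, the other at 0.093) and ATF3 (2 of 3 below, the highest at 0.010) disagreed in sign. At an unadjusted p under 0.05, 5 of the 10 were lower, beside 5.57% of all genes, and 0 passed after adjustment (limma). The list was chosen with earlier results of these data known, so these shares describe it and do not test it. CHAC1, a glutathione-degrading enzyme, had 8.06 and 8.52 in knockdown cells and 8.56 and 8.78 in control cells. SESN2, a sestrin of the stress response, had 7.95 and 8.34 in knockdown cells and 8.35 and 8.60 in control cells, and DDIT4, an inhibitor of mTOR signalling, 11.69 and 11.83 in knockdown cells and 11.91 and 12.08 in control cells. Leaving out single arrays moved CHAC1 between -0.61 and -0.15 and SESN2 between -0.53 and -0.14. ATF4, the transcription factor itself, differed by -0.11 and DDIT3 (CHOP) by -0.043, both with overlapping arrays. Replicate 1 lay below replicate 2 by a list median of -0.27 in knockdown cells and -0.24 in control cells, about the size of the difference between the groups. The part of these array values in the PMAIP1 difference was not tested.

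**Figure D3:**
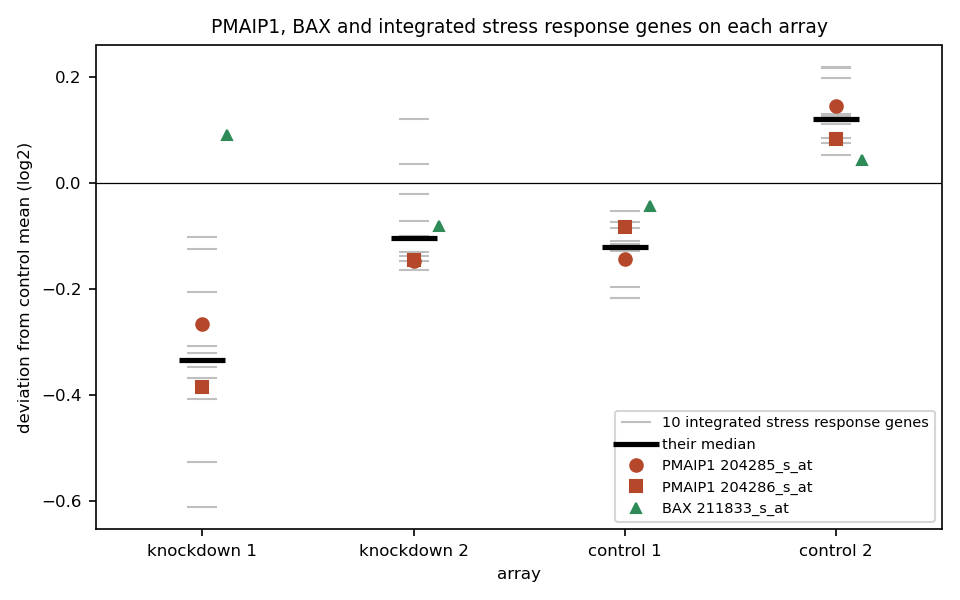
Deviation of each array from the control mean (log2) for both PMAIP1 probe sets, BAX, the 10 integrated stress response genes (grey dashes) and their median (black dash). PMAIP1 and the stress response median (-0.33) are lowest on knockdown 1 and highest on control 2, whereas BAX is highest on knockdown 1.

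The 250 bases before the annotated starts of PMAIP1 and BAD are shown. Of the 9 members with a promoter entry, only these hold the core of the cAMP response element in an upstream window. That core (TGACGT on either strand, in capitals) is bound by ATF and CREB proteins. MCL1 had no promoter entry and was not searched. The sequences are from RefSeq on build GRCh38.p14, 5′ to 3′ on the strand of the gene, at chr18:59899746-59899995 (plus strand) for PMAIP1 and chr11:64284705-64284954 (minus strand) for BAD.
PMAIP1: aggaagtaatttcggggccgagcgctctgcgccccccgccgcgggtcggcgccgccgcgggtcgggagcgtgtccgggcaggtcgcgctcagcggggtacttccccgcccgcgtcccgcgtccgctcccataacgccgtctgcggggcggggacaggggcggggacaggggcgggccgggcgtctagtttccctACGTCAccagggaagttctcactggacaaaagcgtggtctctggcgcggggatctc
BAD: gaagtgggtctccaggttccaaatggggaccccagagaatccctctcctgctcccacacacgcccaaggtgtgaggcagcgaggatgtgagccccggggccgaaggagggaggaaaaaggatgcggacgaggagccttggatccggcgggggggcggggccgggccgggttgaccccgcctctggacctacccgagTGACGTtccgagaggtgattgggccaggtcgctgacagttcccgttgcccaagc
The match begins 56 bases before the start in PMAIP1, on the opposite strand, and 54 bases before it in BAD, on the gene's strand. The 9 members with a promoter entry, BBC3 included, have 15 windows, since some have several starts. Of these, 3 held the motif (1 of PMAIP1 and 2 of BAD), and 7.1% of all 35116 windows of that length did. The 2 BAD windows overlap and hold the same single match, which begins 54 bases before 1 start and 93 before the other. The composite element TGATGNAA, to which ATF4 binds with C/EBP proteins, was searched on both strands and is not spelled in any of the 15 member windows (3.14% of all windows hold it). Both motifs were picked with the PMAIP1 values known, and a match is a description of the letters.

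BAD, a BH3-only protein inactivated by growth factor signalling through AKT, was close to control on every array. Its brightest probe set, 209364_at, had 8.80 and 8.78 in knockdown cells and 8.82 and 8.85 in control cells, a difference of -0.044 ± 0.051 (SE; limma, adjusted p = 0.89). The groups were apart there and at 1861_at (7.78 and 7.77 in knockdown, 7.80 and 7.80 in control), but by a few hundredths of a log2 unit. The third probe set, 232660_at, differed by -0.0014.

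BCL2L11, which encodes BIM and binds all guardians, had the most probe sets, 7. At the brightest, 225606_at, it had 9.62 and 9.63 in knockdown cells and 9.68 and 9.66 in control cells, a difference of -0.044 ± 0.051 (SE; limma, adjusted p = 0.88). At 222343_at it had 6.84 and 6.68 in knockdown cells and 6.51 and 6.56 in control cells. The mean signal of that probe set, 6.65, was close to the median of all probe sets, 6.59. There both knockdown arrays were above both controls, by 0.22 ± 0.066 (SE; limma, adjusted p = 0.60), the largest positive difference among the member probe sets. Without knockdown replicate 1 the difference there was 0.14, and without knockdown replicate 2 it was 0.30, each in a fit with 1 knockdown array. The remaining 5 probe sets lay between -0.020 and 0.073 with overlapping arrays, so a difference at 222343_at was not shared by the other probe sets of BCL2L11.

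BID links death receptors to the mitochondrion once caspase-8 has cut it. At 211725_s_at it had 10.25 and 10.09 in knockdown cells and 10.06 and 10.08 in control cells. Knockdown replicate 2 was level with the controls, and the difference was 0.096 ± 0.065 (SE; limma, adjusted p = 0.75), falling to 0.016 without knockdown replicate 1. The other 2 probe sets differed by 0.025 and 0.0032 with overlapping arrays. On knockdown replicate 1, the array on which BID and BAX were highest, the fibroblast and mesenchymal markers were also highest: their median deviation was 0.39 on that array and 0.064 on knockdown replicate 2, beside 0.023 and -0.023 for the controls (10 measured, 2 higher and 0 lower at an unadjusted p under 0.05, beside 2.39% and 5.57% of all genes). Their part in these values was not tested.

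The probe set shared by BBC3 (PUMA), MIR3190 and MIR3191, 211692_s_at, had 7.23 and 7.23 in knockdown cells and 7.18 and 7.30 in control cells, a difference of -0.0054 ± 0.059 (SE; limma, adjusted p = 1.0). It is counted in none of the totals. The 15 BH3-only probe sets with a single symbol had a median difference of 0.0018, and the 18 of effectors and BH3-only genes together 0.0037.

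The wider pathway was described with 7 lists, 1 probe set per gene. None of their genes passed over all probe sets (limma), and 7.96% of all 19775 genes had an unadjusted p under 0.05, 2.39% higher and 5.57% lower, with a median difference of -0.0094. Among the 11 other BCL2 family genes, all measured, 0 were higher and 1 lower at an unadjusted p under 0.05, with a median of -0.029. BCL2L2, the guardian BCL-W, was at 9.08 and 9.08 in knockdown cells and 9.21 and 9.21 in control cells, a difference of -0.13 ± 0.050 (SE; limma, adjusted p = 0.62), and its second probe set was at -0.11. The annotation also lists a read-through of BCL2L2 with PABPN1, whose signal may enter these probe sets. HRK, a BH3-only gene of neurons, had 8.93 and 8.98 in knockdown cells and 9.05 and 9.06 in control cells, with all 5 of its probe sets below control (-0.35 to -0.056). Its difference was -0.10 at the brightest and -0.32 without probe sets that can bind several transcripts. BOK, an effector-like relative, had 6.74 and 6.74 in knockdown cells and 6.89 and 6.80 in control cells. These values lay a little above the median of all probe sets, 6.59. The BOK difference was -0.10 there and -0.034 without probe sets that can bind several transcripts.

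Downstream of the membrane, 11 of 13 apoptosome and caspase genes and 6 of 7 inhibitors of apoptosis were measured here, and 0 of either list had an unadjusted p under 0.05. Medians were -0.040 and -0.070, with 10 of 11 and 5 of 6 below control. ENDOG, a mitochondrial nuclease, differed by -0.13, the apoptosome scaffold APAF1 by -0.11 (3 probe sets, of which 1 below control) and the executioner caspase CASP6 by -0.067. BIRC7 (-0.097), BIRC6 (-0.085) and the caspase inhibitor XIAP (-0.070) had the smallest p among the inhibitors. Upstream of BID, 9 of 10 death receptor genes were measured, with 0 at an unadjusted p under 0.05 and a median of -0.0045. CFLAR, a decoy of caspase-8, was at 0.089, the adaptor FADD at 0.080 and TRADD at -0.054. The probe sets of APAF1, XIAP, CFLAR and TRADD disagreed in sign.

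Among 10 genes of outer membrane partners, 0 were higher and 3 lower at an unadjusted p under 0.05, with a median of -0.022. MFN2, a mitofusin that joins the outer membranes of mitochondria, had 8.55 and 8.60 in knockdown cells, against 8.86 and 8.85 in control cells. The groups were well apart, and the difference was -0.28 ± 0.052 (SE; limma, adjusted p = 0.58), with all 3 probe sets below control (-0.28 to -0.050). Without probe sets that can bind several transcripts MFN2 was at -0.050, and as the mean over its probe sets at -0.17. Its paralogue MFN1 had 9.50 and 9.51 in knockdown cells and 9.66 and 9.65 in control cells, a difference of -0.15 ± 0.051 (SE; limma, adjusted p = 0.60), with 3 of 3 probe sets below control. BNIP3L, a receptor for the removal of mitochondria, had 11.27 and 11.24 in knockdown cells and 11.41 and 11.42 in control cells. Of 15 regulators of the family's genes and proteins, 14 were measured, 0 had an unadjusted p under 0.05 and the median was -0.041. MYC differed by -0.16 (from -0.26 to -0.050 with 1 array left out), AKT1 by -0.11 and MDM2 by -0.087, whose 10 probe sets disagreed in sign.

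**Figure D4:**
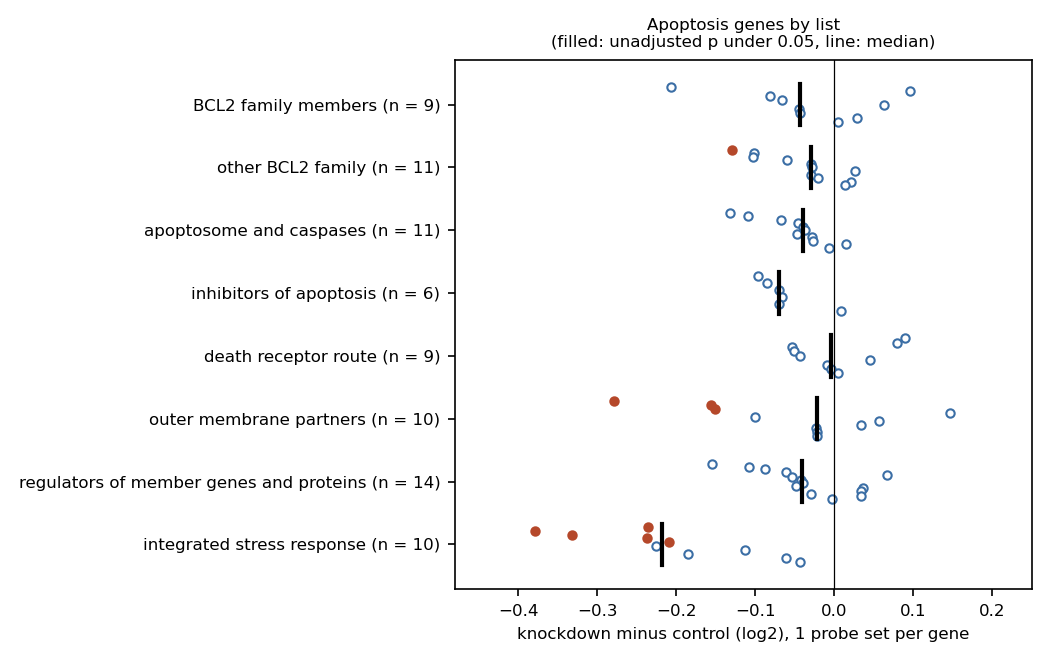
Knockdown minus control (log2) for each measured gene of 8 gene groups, 1 probe set per gene; filled points have an unadjusted p under 0.05 (limma) and vertical lines are medians. The stress response list has the lowest median, -0.22, and no point passed after adjustment.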

How the data were processed

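Per the labels' protocols, 100 ng of total RNA per sample was amplified, labelled with biotin and hybridised to 1 array. The deposited values are log2 expression per probe set. The submitters' processing notes name RMA (background correction, quantile normalization and a summary per probe set) and R 3.0.1 but give no settings. Such summaries compress differences near background. No scanner file, detection call or scan date was used. The number of arrays limits the precision.

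Of 54675 probe sets, 62 controls were left out. Genes were named by the platform annotation (41091 probe sets with 1 gene, 1801 with several, 11721 not listed). All 9 measured members matched a current gene identifier with the same symbol. Knockdown minus control was fitted with limma 3.58.1 (R 4.3.3; lmFit, eBayes, all 4 arrays, no covariates) over 54613 probe sets with Benjamini-Hochberg adjustment and a threshold of 0.05, two-sided. The test was also run on simulated arrays with known changes. These were all larger than any member difference, so the run does not show whether differences of the members' size would be called. Figures used Python 3.11.15 and matplotlib 3.10.9.

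Named were TSPAN8, all members and the 3 genes of each list with the smallest p. Further genes (ATF4, DDIT3, GATA3, ISL1, TH, CHGA, CHGB, DBH, LUM) were named after their values were seen. Members and lists were chosen with earlier results of these data known. Alternatives changed normalization, signal filters, variance model, array weights, probe sets per gene, threshold, replicate number as a block, and left out each array.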

Additional observations from a re-analysis of the deposited data

How the results depend on the processing

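TSPAN8 was lower in knockdown under every alternative run, at -1.32 to -1.22 with 1 array left out. A replicate block gave -1.27 (limma, adjusted p = 0.16) and 0 probe sets called, with 1 residual degree of freedom less. Over all probe sets, same-numbered samples deviated together only weakly (r = 0.051, 2 pairs), and no label pairs them. The stress response genes differed between replicates alike in both groups (list medians -0.27 in knockdown and -0.24 in control). With the block the SE fell from 0.089 to 0.051 at PMAIP1 204286_s_at and from 0.13 to 0.058 for SESN2. For BAX it rose from 0.070 to 0.077. None of these was called with the block (limma). The count of all probe sets called was 0 with an ordinary linear model, 4278 at an unadjusted p under 0.05, and 1 to 1026 with 1 array left out (25 without knockdown replicate 1, 1026 without knockdown replicate 2, 1 without either control). The count of member probe sets called was 3 at an unadjusted p under 0.05 and 0 to 2 with 1 array left out, and 0 under the other alternatives run. MCL1 turned to 0.067 without probe sets that can bind several transcripts and to 0.0042 as the mean over its probe sets. BCL2L11 turned to 0.037 as such a mean, and BAX to -0.0095 after median centring. MDM2 turned to 0.015 and 0.0070 under the same changes of probe sets as MCL1. With 1 array left out BCL2 ran from -0.021 to 0.079, BAX from -0.082 to 0.090 and BAX minus BCL2 from -0.075 to 0.026. Without probe sets that can bind several transcripts MFN2 was at -0.050 and HRK at -0.32, neither called. What lies behind these shifts was not tested. PMAIP1 kept its sign under all alternatives run, from -0.35 to -0.063 with 1 array left out. Both of its probe sets can bind several transcripts, so the alternative without such probe sets could not be run for PMAIP1. Other scalings moved the median of all probe sets by at most 0.014.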
